A study of Mus musculus with 5 samples.

Results

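The nuclei described here are mouse liver hepatocyte nuclei from the middle ranks of an expression score that runs from periportal to pericentral genes; their place in the tissue was not measured. They were chosen by a score on 10 genes, and number 3646 of 18236 hepatocyte nuclei and of 57080 barcodes in all. A hepatocyte nucleus had at least 2000 UMIs (unique molecular identifiers, which count RNA molecules once each), under 10% mitochondrial UMIs, at least 1 UMI of Hnf4a, a hepatocyte transcription factor, and 0 UMIs of Ptprc, Ptprb, Pkhd1 and Col3a1, which mark leukocytes, endothelial cells, cholangiocytes and fibroblasts. Each nucleus was scored as the mean ln(1 + UMIs per 10000) of 5 pericentral genes (Glul, Oat, Slc1a2, Cyp1a2 and Cyp2e1) minus that of 5 periportal genes (Cyp2f2, Hal, Sds, Gls2 and Pck1). Nuclei were ranked by this score within each library, and those with ranks from 40% to 60% are the middle nuclei. The 20% of lowest rank form the periportal end (3647 nuclei) and the 20% of highest rank the pericentral end (3647 nuclei).

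Libraries came from livers of male C57BL6/J mice kept on regular chow (3 libraries, chow 1 to 3) or on a diet high in fat, fructose and cholesterol that leads to metabolic dysfunction-associated steatohepatitis (2 libraries, MASH 1 and 2). All were wild-type mice, put on the diets at 10 to 12 weeks of age and kept on them for 5 months, and the MASH diet held 40% of its calories as fat and 20% as fructose, with 2% cholesterol. Whether a library came from 1 mouse or from several is not given in the sources used here, so p-values measure only the spread between these libraries. Values in the 5 libraries are given below in the order chow 1, 2 and 3, then MASH 1 and 2.

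Blood enters the lobule at the portal tracts and leaves at the central vein, and hepatocytes along this path divide the metabolic work among them. Urea synthesis and gluconeogenesis are strongest near the portal tract, and glutamine synthesis, bile acid synthesis and drug metabolism near the central vein. Cells in between are known in mouse liver for hepcidin (Hamp), the hormone that makes cells degrade the iron exporter ferroportin, and for the IGF-binding protein Igfbp2, and they supply many of the new hepatocytes of the adult liver.

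The middle nuclei numbered 671, 1176 and 1253 in chow and 284 and 262 in MASH, with 1490908 to 6578747 UMIs per library in all and a median of 5021, 3774.5 and 4565 UMIs per nucleus in chow and 4773.5 and 5224.5 in MASH. This median lay above the periportal end in 5 of 5 libraries and above the pericentral end in 1 of 5, and its distance from the mean of both ends was 126.2 UMIs (exact sign-flip permutation test, two-sided, p 0.25; the smallest p that 5 libraries allow is 0.0625). Hepatocyte nuclei made up 38.86%, 45.51% and 56.78% of barcodes in chow and 10.99% and 11.37% in MASH. Asking for 0 UMIs of Ptprc, Ptprb, Pkhd1 and Col3a1 took 4189, 6548 and 6991 nuclei to 3355, 5876 and 6269 in chow. In MASH it took 2464 and 2589 nuclei to 1422 and 1314. The part of this selection in the differences between diets was not tested. Between 23 and 48 barcodes were shared by any pair of libraries, at most 0.399% of the smaller one. Chow 3 stood apart in its composition, with TMM scaling factors of 0.734 to 0.808 against 0.918 to 1.21 in the other libraries. The 20% of ranks covered scores from -0.958 to -0.0927, -0.711 to -0.237 and -0.951 to -0.501 in chow, and from -0.322 to 0.113 and -0.0800 to 0.213 in MASH, so the same ranks stood for higher scores in MASH. The nearest nuclei outside these windows had scores of -0.958 and -0.0922, -0.711 and -0.237, and -0.952 and -0.501 in chow, and -0.323 and 0.113, and -0.0838 and 0.216 in MASH. When each nucleus was thinned to 2000 UMIs before scoring, from 46.8% to 60.8% of the middle nuclei stayed in the middle, against 71.2% to 85.2% at the periportal end and 79.5% to 82.7% at the pericentral end.

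Most middle nuclei held at least 1 UMI of both sets of score genes, which was not told apart from background. The share of middle nuclei with at least 1 UMI of each set was 96.7% ± 3.8 (SD, n = 3) in chow and 95.5% ± 3.11 (SD, n = 2) in MASH. The 2 set means added to between 1.57 and 1.96 in the middle of chow and between 1.05 and 1.18 in the middle of MASH, against 1.90 or more at the pericentral end and 1.86 or more at the periportal end of either diet. The middle share was above both ends in 4 of 5 libraries, but not in chow 3 (92.5% against 97.7% at the pericentral end). The neighbouring group on the pericentral side had shares of 100%, 100% and 99.0% and sums of 1.70, 1.81 and 1.42 in chow. In MASH it had shares of 83.5% and 86.3% and sums of 1.06 and 1.18. In chow neither measure was thus particular to the middle. These values follow in part from the rule and are given as a description. From 1.15% to 3.17% of the middle nuclei of MASH had no UMI of any of the 10 genes, against 0 in chow. Nuclei with the highest doublet scores made up 14.4% ± 1.97 (SD, n = 3) of the middle in chow and 5.65% ± 0.973 (SD, n = 2) in MASH, higher than at both ends in 4 of 5 libraries (exact sign-flip permutation p 0.0625 against the mean of the ends, the smallest possible). Removing them is one of the alternatives below.

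Of the hepatocyte markers Alb, Ttr, Apob, Fgb and Cps1, all were present in the middle of every library, from 279 CPM (UMI counts scaled to a common library total) for Cps1 to 7629 for Fgb. RNA of other cell types was low by comparison. The 9 stellate cell markers summed to between 48.0 and 76.0 CPM in chow and between 90.5 and 96.9 in MASH, and the 9 endothelial markers to between 33.7 and 46.0 in chow and between 68.6 and 69.2 in MASH. For the 9 macrophage markers the sums were between 16.9 and 20.2 CPM and between 24.2 and 55.6, with Timd4 at 0 in MASH, and for the 9 lymphocyte markers between 0.784 and 4.44 and between 4.54 and 5.32. The 8 cholangiocyte markers summed to between 2.38 and 13.7 CPM in chow and between 132 and 156 in MASH. Their defining keratin Krt19 was at 0 in both diets and Krt7 at 0 in MASH, and Spp1 made up most of the sum. For all 5 sums the lowest MASH value exceeded the highest chow value (two-sided exact permutation p 0.1 for the endothelial, macrophage and cholangiocyte sums and 0.2 for the stellate and lymphocyte sums; 3 against 2 libraries cannot go below 0.1), and their part in the differences between diets was not tested.

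The promoters of Hamp and its near copy Hamp2 are shown because the marker results below turn on these genes. Hamp lies on GRCm38 chromosome 7 from 30942368 to 30944032 and Hamp2 from 30922372 to 30924681, both protein-coding on the minus strand and both overlapped on the other strand by Gm44662. The 150 bases before each RefSeq start site (GRCm38.p6, minus strand) are chr7:30944030-30944179 for Hamp and chr7:30924182-30924331 for Hamp2. Capitals mark 2 motifs searched on both strands, GGCGCC, the core of the element through which bone morphogenetic protein (BMP) signals act on hepcidin, and TTCNNNGAA, the letters of a STAT site.
Hamp: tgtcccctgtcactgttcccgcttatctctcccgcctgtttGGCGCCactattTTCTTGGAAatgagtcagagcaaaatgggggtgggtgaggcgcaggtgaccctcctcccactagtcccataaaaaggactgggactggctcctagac
Hamp2: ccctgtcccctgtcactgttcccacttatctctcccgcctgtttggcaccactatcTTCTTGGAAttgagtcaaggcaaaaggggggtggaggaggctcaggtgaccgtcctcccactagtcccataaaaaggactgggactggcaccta
In Hamp the GGCGCC letters lay from -109 to -104 and the TTCTTGGAA letters from -97 to -89, counted from the start site. Hamp2 held TTCTTGGAA from -94 to -86 and no GGCGCC in this window. Of 32851 mouse promoters of the same length 7.01% held GGCGCC and 4.09% held TTCNNNGAA, and the motifs do not overlap each other here. The longest annotated transcripts of the genes were 89.0% identical with a shared run of 87 bases, so reads of Hamp2 and Hamp can be confused, and the values of Hamp2, which is far lower, are uncertain.

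In chow Hamp was higher in the middle than at the pericentral end and did not pass the test against the periportal end, while in MASH it was lower in the middle than at the periportal end. Its level in the middle nuclei, scaled with TMM, was 1166, 985 and 1909 CPM in the chow libraries and 179 and 119 in the MASH libraries, from 4418, 5026, 9468, 302 and 235 UMIs. At the periportal end it was 1056, 896 and 1491 CPM in the chow libraries and 459 and 384 in the MASH libraries, and at the pericentral end 352, 483 and 1174 CPM in the chow libraries and 53.0 and 51.8 in the MASH libraries. All 3 chow libraries thus had more in the middle than at either end, and both MASH libraries had less there than at the periportal end. The middle was not the highest rank group in every chow library, since the neighbouring group on the periportal side had 1025 CPM in chow 2 and that on the pericentral side 2062 CPM in chow 3. In chow the middle exceeded the pericentral end by 1.11 (SE 0.16, adjusted p 0.000135) on the log2 scale and did not differ from the periportal end beyond the spread, at 0.20 (adjusted p 0.665). In MASH the middle was above the pericentral end, at 1.49 (SE 0.25, adjusted p 0.00301), and below the periportal end, at -1.51 (SE 0.22, adjusted p 0.000656). The difference between diets was thus more negative in the middle than at the periportal end, at -1.71 (SE 0.27, adjusted p 0.00589), and against the pericentral end the interaction was 0.37 (adjusted p 0.782). In the plot of Hamp over rank bins of 5%, the unscaled peak lay at ranks of 50% to 55%, 30% to 35% and 65% to 70% in chow, and at 0% to 5% and 5% to 10% in MASH. Over all 5 libraries the middle was above the pericentral end by 1.18 (SE 0.29, adjusted p 0.0184), a call that was lost without chow 1 (1.0, adjusted p 0.0847), with 3 equal parts of the ranks (0.80, adjusted p 0.0740) and with no library block (1.14, adjusted p 0.513). Without either MASH library these interactions and MASH contrasts missed the threshold (adjusted p 0.326 and 0.328 for the interaction with the periportal end, at -1.87 and -1.55), since a single MASH library was left.

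**Figure D1:**
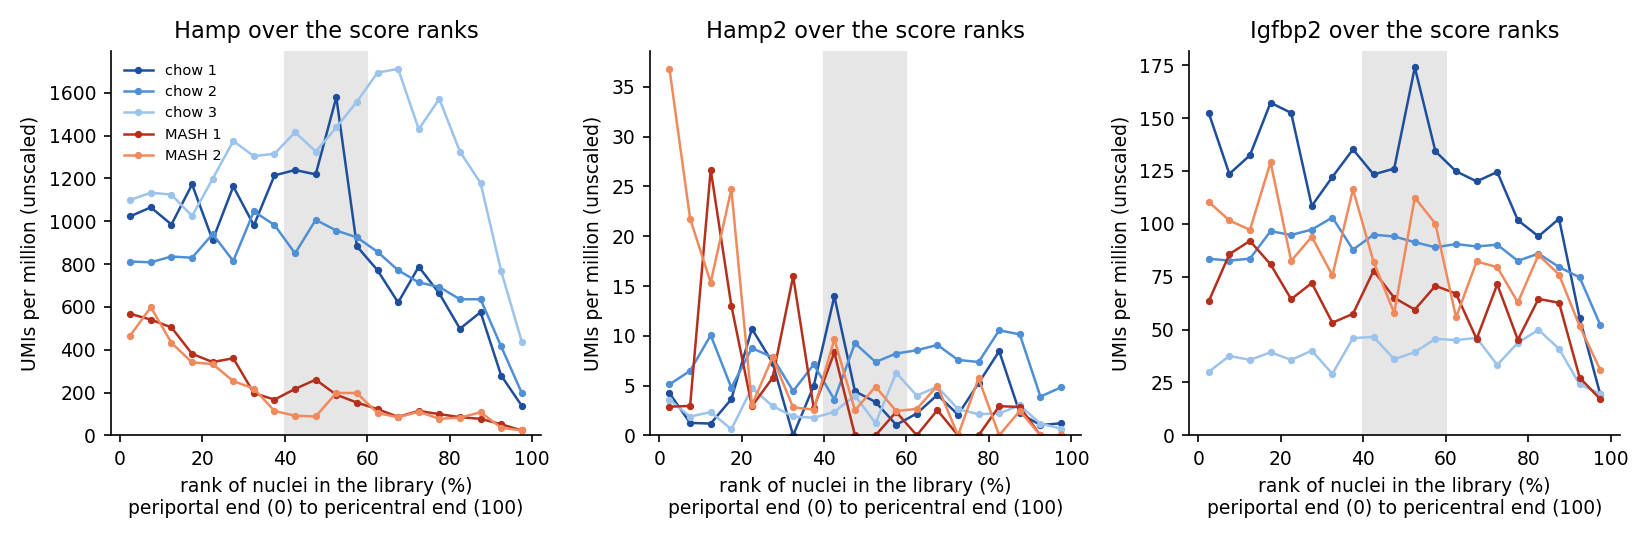
CPM without TMM scaling of Hamp, Hamp2 and Igfbp2 in 20 bins of nuclei ranked by the score, from the periportal (0) to the pericentral end (100), with 1 line per library (blue chow, red MASH) and the middle nuclei shaded. Hamp runs high through the shaded ranks in the chow libraries and declines from the periportal side in both MASH libraries, Hamp2 rests on few UMIs, and Igfbp2 is lowest in the last bin of every library.

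Between diets Hamp was lower in the middle nuclei of MASH, at -3.10 (SE 0.49, adjusted p 0.0135) on the log2 scale, with no overlap between the diets, a call lost without MASH 1 (-3.44, adjusted p 0.163) and without MASH 2 (-2.84, adjusted p 0.213). The share of nuclei with a Hamp UMI, after thinning to 1000 UMIs, was 51.7% ± 8.25 (SD, n = 3) in the middle of chow and 14.5% ± 0.0475 (SD, n = 2) in MASH (exact permutation p 0.1, the smallest possible). Unthinned, these shares were 81.0% and 34.7%. In nuclei with endothelial markers, which should lack hepcidin, the thinned share was 40.8% ± 15.7 (SD, n = 3) in chow and 12.7% ± 0.920 (SD, n = 2) in MASH, at median depths of 1610.5 to 2236 UMIs against 3774.5 to 5224.5 in the middle. By library the middle and endothelial shares were 48.1% and 24.3%, 45.8% and 42.6%, and 61.1% and 55.5% in chow. In MASH they were 14.4% and 13.3%, and 14.5% and 12.0%. The shares lay close in all libraries except chow 1, where the middle was higher. A single Hamp UMI in a nucleus is therefore not read as expression here. In MASH the thinned share was 29.0% at the periportal end and 4.54% at the pericentral end, the latter below the 12.7% of nuclei with endothelial markers. In chow the pericentral share was 31.7%, also below their 40.8%. The part of background in the Hamp levels and in their diet difference was not tested.

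Of the remaining midlobular markers, Igfbp2, which binds insulin-like growth factors, was 133, 97.4 and 55.9 CPM in the chow libraries and 60.3 and 72.7 in the MASH libraries in the middle, 140.3, 94.4 and 48.8 CPM in the chow libraries and 74.5 and 93.8 in the MASH libraries at the periportal end and 64.3, 74.7 and 42.4 CPM in the chow libraries and 38.3 and 50.8 in the MASH libraries at the pericentral end. It was higher in the middle than at the pericentral end in 5 of 5 libraries, by 0.59 (SE 0.12, adjusted p 0.00527), a call lost with no library block (0.63, adjusted p 0.721), and against the periportal end the difference was -0.08 (adjusted p 0.862). Diets overlapped for Igfbp2 (-0.43, adjusted p 0.515). Hamp2 had 20, 38, 23, 4 and 8 UMIs in the middle, or 5.28, 7.45 and 4.64 CPM in the chow libraries and 2.37 and 4.04 in the MASH libraries. In MASH it was lower in the middle than at the periportal end (10.6 and 20.8 CPM there), at -2.27 (SE 0.44, adjusted p 0.00765), and its diet difference was more negative in the middle than at that end, at -2.73 (SE 0.53, adjusted p 0.0267), which missed the threshold with thinning before scoring (-2.69, adjusted p 0.0558), in 3 equal parts of the ranks (-2.07, adjusted p 0.0539) and without either MASH library (adjusted p 0.326 and 0.461). Mup3, a major urinary protein that carries pheromones, and Cyp8b1, which sets the ratio of bile acids, were not called between the middle and either end. Mup3 was 1232, 1931 and 2837 CPM in the chow libraries and 375 and 150.4 in the MASH libraries in the middle against 1556, 2139.8 and 2993 CPM in the chow libraries and 559.9 and 216 in the MASH libraries at the periportal end, so it was lower in the middle in 5 of 5 libraries, at -0.32 (adjusted p 0.207). It was lower in MASH, at -2.85 (SE 0.60, adjusted p 0.035). Cyp8b1 was 76.0, 41.0 and 50.0 CPM in the chow libraries and 33.7 and 37.4 in the MASH libraries in the middle, above both ends in chow 1 and chow 2 alone, with differences of 0.11 (adjusted p 0.776) from the periportal and -0.06 (adjusted p 0.809) from the pericentral end. Of these 5 markers, 0 were called higher in the middle than at the periportal end, where 1.17% of 12602 genes tested were called higher, and 2 (Hamp and Igfbp2) were called higher than at the pericentral end, where 3.82% were. With no marker called above the periportal end, the nuclei are named here by their rank and not as a midlobular cell type. After thinning to 1000 UMIs, the share with an Igfbp2 UMI in chow was 9.02% in the middle and 10.7% in nuclei with endothelial markers. In MASH these shares were 8.09% and 6.12%. For Mup3 they were 80.5% and 86.1% in chow and 24.7% and 39.5% in MASH. For Cyp8b1 they were 5.23% and 2.77% in chow and nearly equal in MASH. A single Igfbp2 or Mup3 UMI is thus not read as expression, and the part of background in their levels was not tested. With the 15 genes of the rule left out of the tests, 0.857% of genes were lower in the middle than at the periportal end and 4.24% lower than at the pericentral end.

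For genes that differed between the ends, the middle nuclei lay between them. Of 12602 genes, 1540 were higher at the pericentral than at the periportal end, and in 1476 of these the fitted level of the middle lay between the ends, at a median of 44.9% of the way. Of 1391 genes higher at the periportal end, 1329 had the middle between the ends, at a median of 39.4% of the way from the periportal end. Within chow these medians were 44.4% (1725 genes) and 37.8% (1615 genes), and within MASH 53.9% (473 genes) and 54.0% (415 genes). The genes were picked by their difference between these same ends, so the counts are a description.

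Zonated genes outside the score followed this order. Of 22 held-out pericentral genes, 7 were higher in the middle than at the periportal end and 21 lower than at the pericentral end, with median log2 fold changes of 0.63 and -1.12 against medians of -0.01 and 0.00 over all genes. Of all genes 1.17% and 4.24% were called in these directions. Lgr5, a receptor that amplifies Wnt signals at the central vein, was 4.49, 1.96 and 6.86 CPM in the chow libraries and 10.6 and 8.58 in the MASH libraries in the middle and 59.2, 13.5 and 78.8 CPM in chow and 109 and 71.9 in MASH at the pericentral end, a difference of -3.36 (adjusted p 3.4e-11). Axin2, a Wnt target, was 8.71, 6.67 and 5.04 CPM in the chow libraries and 20.1 and 22.2 in the MASH libraries, and -1.81 (adjusted p 3.3e-07) from the pericentral end. For Tbx3, a Wnt-dependent transcription factor of pericentral hepatocytes, the middle was 2.58 above the periportal end (adjusted p 8.5e-06) and -1.89 from the pericentral end (adjusted p 1.2e-06). The rise from the periportal end also passed for Rnf43, Gulo, Cyp27a1 and Ahr, at 0.49 to 1.40.

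Of 22 held-out periportal genes, 9 were lower in the middle than at the periportal end and 14 higher than at the pericentral end, with medians of -0.65 and 0.66. Of all genes 0.857% and 3.82% were called in these directions. Within chow 6 were lower than at the periportal end (median -0.46), where 134 of 12602 genes (1.06%) were lower, and within MASH 13 were (median -1.14), where 151 genes (1.2%) were. Of the 22, 3 had a diet difference that was more negative in the middle than at the periportal end, namely Cps1, Ass1 and Uroc1, where 0.373% of all genes were called in that direction. Cps1, which starts the urea cycle, was 1203, 1560.4 and 695 CPM in the chow libraries and 279 and 356 in the MASH libraries in the middle and 1133, 1812 and 697 CPM in the chow libraries and 675 and 719.6 in the MASH libraries at the periportal end. The middle of MASH stood below the periportal end in both libraries (-1.14, adjusted p 0.00010), chow showed no such step (-0.05, adjusted p 0.898), and the interaction was -1.08 (SE 0.17, adjusted p 0.00589). Ass1, the next but one enzyme of the cycle, was 245, 277 and 147 CPM in the chow libraries and 84.6 and 101 in the MASH libraries in the middle, against 244, 255 and 146 CPM in chow and 198 and 222 in MASH at the periportal end, with an interaction of -1.21 (SE 0.17, adjusted p 0.00218). Uroc1, an enzyme of histidine breakdown, gave -0.78 (SE 0.15, adjusted p 0.0334). The other urea cycle genes on the list, Asl and Arg1, gave -0.73 (adjusted p 0.151) and -0.93 (adjusted p 0.0719) and were not called. Since the 40% to 60% ranks of MASH stand for higher scores than those of chow, the place along the score and the diet cannot be told apart in these interactions.

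**Figure D2:**
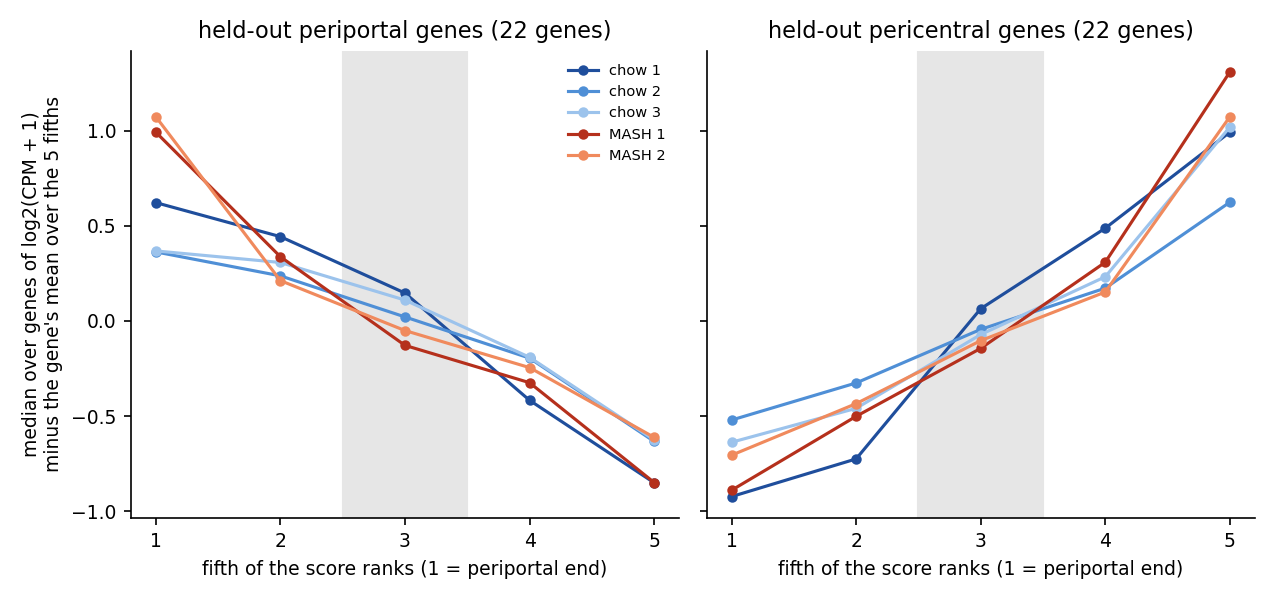
Median over 22 held-out periportal genes (left) and 22 held-out pericentral genes (right) of log2(CPM + 1) minus the mean of each gene over all 5 rank groups, plotted over the rank groups from the periportal end (1) to the pericentral end (5), with 1 line per library and the middle nuclei shaded. In all 5 libraries the middle lies between the ends, and the periportal genes are below 0 in the middle of both MASH libraries and above 0 in all 3 chow libraries.

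Few genes were higher in the middle than at both ends. Called in both contrasts were 7 genes (0.0555% of 12602), named here after their values were seen, and 0 genes (0%) were lower than at both ends. Before adjustment 1637 genes had p under 0.05 against the periportal end and 2629 against the pericentral end, and DESeq2 called 1 gene, Sult1a1, lower than at both. No gene met the full naming rule for the middle, which asked for the same direction in all 5 libraries and at least 10 CPM. Of the 7, 4 were the haemoglobin genes Hbb-bt, Hbb-bs, Hba-a1 and Hba-a2 of red blood cells. The alpha genes are much alike, as are the beta genes, so reads can be split within each kind. UMIs of the haemoglobin genes came from very few nuclei. In chow 1 a single nucleus held 2908 of the 3109 haemoglobin UMIs of the middle, in chow 3 another held 917 of 1267, in MASH 1 2 nuclei held 5737 of 5783, and in chow 2 3 nuclei held 249 of 541, while MASH 2 had 30 UMIs and no such nucleus. Without the nuclei in which haemoglobin was at least 1% of the UMIs, an alternative added after the data were seen, 3 of the 7 genes were called, namely Ccl2, Iqgap1 and Sprr1a.

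Sprr1a, a stress-induced protein of the cornified envelope, had 0, 0, 23, 43 and 49 UMIs in the middle, and the single highest nucleus held 17 of 23 in chow 3, 15 of 43 in MASH 1 and 46 of 49 in MASH 2. Ccl2, the chemokine that draws monocytes, had 6, 2, 154, 51 and 31 UMIs, most of them in chow 3, with 1.24 and 0.94 against the ends (adjusted p 0.00856 and 0.0149). The Ccl2 call was lost without chow 3 or MASH 1, with DESeq2, with thinning before scoring, with 3 equal parts of the ranks and with no library block, and that of Sprr1a in the last 4 of these settings. Iqgap1, a scaffold of the actin cytoskeleton, was spread over more nuclei. Its level was 10.0, 6.86 and 6.05 CPM in the chow libraries and 68.6 and 56.5 in the MASH libraries in the middle, 5.0, 7.04 and 3.0 CPM in the chow libraries and 41.5 and 36.5 in the MASH libraries at the periportal end and 5.89, 4.76 and 4.84 CPM in the chow libraries and 32.6 and 32.8 in the MASH libraries at the pericentral end. That is 0.64 (SE 0.15, adjusted p 0.0377) and 0.76 (SE 0.15, adjusted p 0.00406) against the ends, above both of them in 4 of 5 libraries. The Iqgap1 call was lost without chow 1, chow 3, MASH 1 or MASH 2, without doublets, with thinning, with a scaled score, with the middle 10% or 3 equal parts of the ranks, with under 5% mitochondrial UMIs and with no library block.

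**Figure D3:**
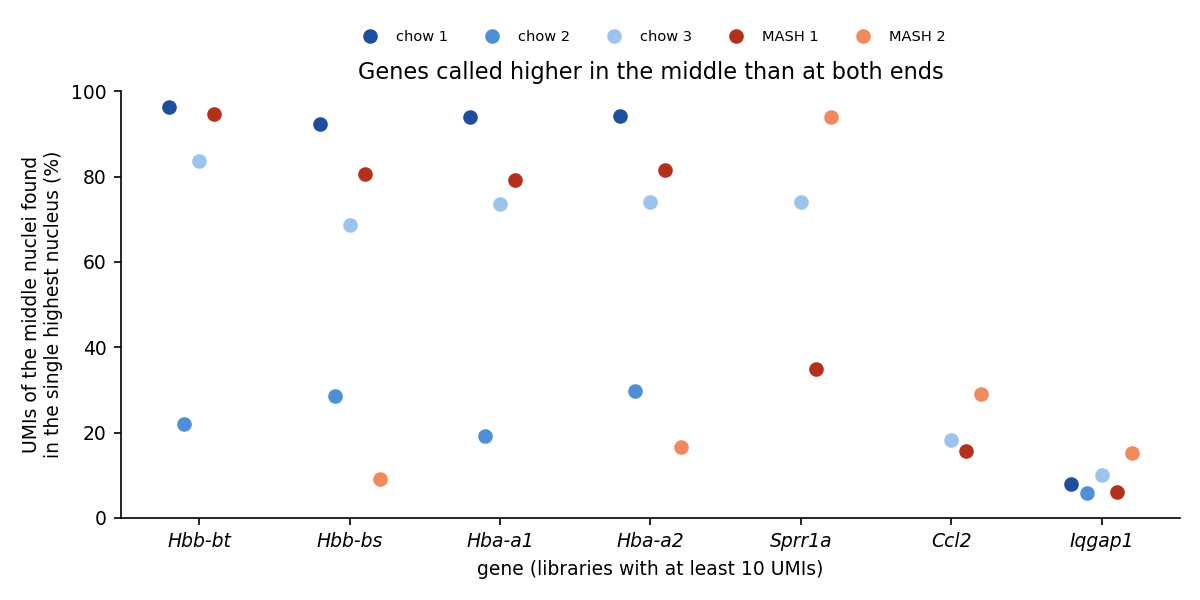
Percentage of the UMIs of a gene in the middle nuclei that lie in the single nucleus with the most, for the 7 genes called higher in the middle than at both ends, with 1 point per library that has at least 10 UMIs. Haemoglobin genes reach 96.4% (Hbb-bt in chow 1) and Sprr1a 93.9% (MASH 2) in 1 nucleus, while Iqgap1 does not exceed 15.2%.

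Within each diet the picture differed in size. In chow 2 genes were higher in the middle than at both ends (0.0159%), both haemoglobin genes, and 1 was lower (0.00794%), Sult1a1, a sulfotransferase of drugs and hormones, at 179.7, 257 and 677 CPM in the middle, 273, 311 and 794 at the periportal end and 258, 295 and 889 at the pericentral end. In MASH 17 genes were higher than at both ends (0.135%) and 1, Gm4756, was lower (0.00794%). These genes too are named after their values were seen. Besides the haemoglobin genes and Sprr1a they were Klf6, Krt8, Osmr, Tnfrsf12a, Ier3, Hbegf, Lgals3, Vmp1, Rbpms, Fat1, Ly6d and D10Wsu102e. A nucleus low in both score sets has a score near 0, which lay inside the middle ranks of both MASH libraries and of no chow library. The 2 set means added to between 1.05 and 1.18 in the MASH middle, against 1.86 or more at its ends. The part of the rule in these 17 calls was not tested. The count was 0 without MASH 1 and 3, all haemoglobin genes, without MASH 2, 3 when nuclei were thinned before scoring, 5 with the ranks cut in 3 equal parts, 8 with DESeq2, 13 without the haemoglobin nuclei and 32 without chow 1.

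Klf6, an injury-induced transcription factor, was 207 and 191 CPM in the middle of the MASH libraries, 80.5 and 116 at the periportal end and 101 and 121 at the pericentral end, or 1.03 (adjusted p 0.00152) and 0.86 (adjusted p 0.00603). In chow it was 32.7, 15.7 and 89.3 CPM in the middle, so chow 3 was well above chow 1 and chow 2. Krt8, the keratin of hepatocytes, was 197 and 159 CPM in the middle of MASH, 98.3 and 83.7 at the periportal and 125 and 92.0 at the pericentral end, or 0.97 (adjusted p 0.000472) and 0.74 (adjusted p 0.00439). Up to 54 of the 350 Klf6 UMIs in MASH 1 and 54 of the 315 Krt8 UMIs in MASH 2 lay in 1 nucleus.

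Osmr and Tnfrsf12a, with Klf6, were no longer called when nuclei were thinned before scoring, with 3 equal parts of the ranks, or without either MASH library, and Krt8 was lost with thinning and without either MASH library. Osmr, which binds oncostatin M, was 10.6 and 20.7 CPM in the middle of MASH, against 2.64 and 5.04 at the periportal and 3.19 and 6.35 at the pericentral end, or 2.03 (adjusted p 0.00282) and 1.72 (adjusted p 0.00561). Chow 3 had a higher level than either MASH library, with 1.85, 3.14 and 66.8 CPM in the chow middle. Tnfrsf12a, the receptor of the cytokine TWEAK, was 37.8 and 32.3 CPM in the middle of MASH, 9.89 and 13.9 at the periportal and 15.3 and 10.0 at the pericentral end, or 1.56 (adjusted p 0.00811) and 1.49 (adjusted p 0.00934). For both the diet difference was more positive in the middle than at the periportal end, by 2.07 (SE 0.38, adjusted p 0.020) for Osmr and 1.87 (SE 0.34, adjusted p 0.0189) for Tnfrsf12a, where 0.111% of genes were called in that direction. Vmp1, a protein of autophagosome formation, was 277 and 314 CPM in the middle of MASH, above 164 and 244 and 149 and 196 at the ends, and yet lower than in the chow middle (1206, 1245 and 3185 CPM; diet difference -2.59, adjusted p 0.0423).

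**Figure D4:**
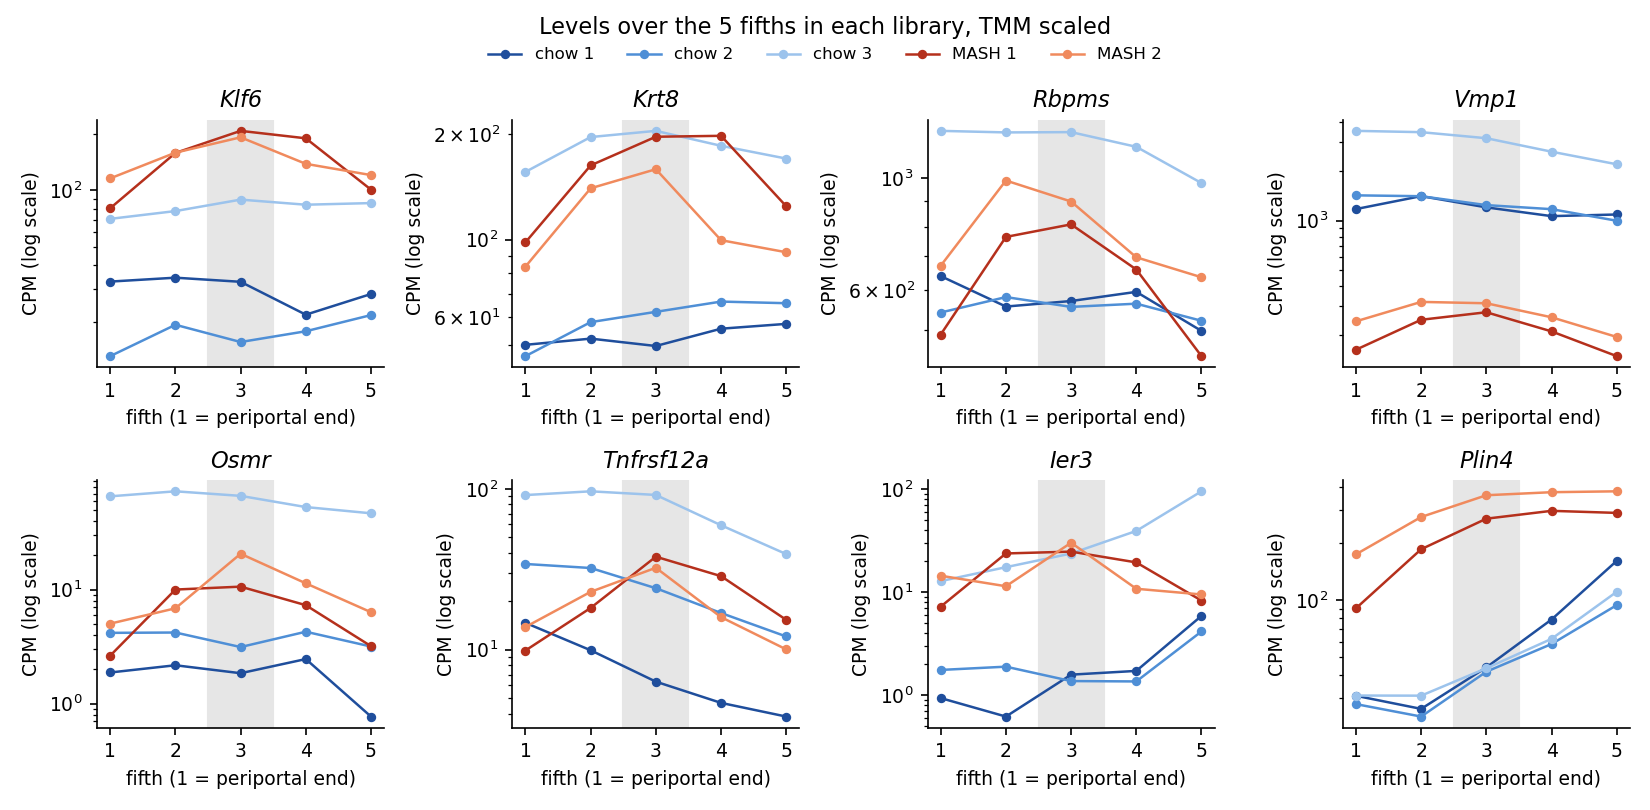
TMM-scaled CPM (log axis) of 8 genes over the 5 rank groups, from the periportal end (1) to the pericentral end (5), with 1 line per library (blue chow, red MASH) and the middle nuclei shaded. In the MASH libraries Klf6, Osmr, Tnfrsf12a and Ier3 are higher in the shaded group than at either end, and Plin4 is nearly as high in the middle as at the pericentral end. Chow 3 lies above the other chow libraries for Krt8, Rbpms, Vmp1, Osmr and Tnfrsf12a, and in the shaded group also for Klf6 and Ier3.

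The diet difference itself was more positive in the middle than in the mean of both ends for 2 genes (0.0159%), Plin4 and Ier3, and more negative for 0 (0%); 762 genes had an unadjusted p under 0.05 in this contrast, and DESeq2 called 1 gene, Chrna4, more negative. Plin4, a coat protein of lipid droplets, was 43.8, 41.6 and 43.4 CPM in the chow libraries and 271 and 361 in the MASH libraries in the middle, 30.9, 27.9 and 31.0 CPM in the chow libraries and 90.3 and 175 in the MASH libraries at the periportal end and 161, 93.9 and 111 CPM in the chow libraries and 291 and 379 in the MASH libraries at the pericentral end. In chow its middle stood near the periportal end and in MASH near the pericentral end. The diet difference was larger in the middle by 1.09 (SE 0.17, adjusted p 0.0327) against the mean of the ends and by 1.40 (SE 0.19, adjusted p 0.00206) against the pericentral end. Ier3, an immediate-early survival gene, was 1.58, 1.37 and 23.8 CPM in the chow libraries and 24.8 and 30.3 in the MASH libraries in the middle and 5.89, 4.16 and 95.7 CPM in the chow libraries and 8.31 and 9.52 in the MASH libraries at the pericentral end, with 2.10 (SE 0.31, adjusted p 0.0324) against both ends. Neither call held when chow 3, MASH 1 or MASH 2 was left out, and Plin4 was also lost without chow 2.

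Against the pericentral end alone, 11 genes (0.0873%) had a more positive and 12 (0.0952%) a more negative diet difference in the middle. Cidec, which fuses lipid droplets, was also among those with a more positive difference, with 24.5, 21.6 and 12.7 CPM in the chow libraries and 82.2 and 118 in the MASH libraries in the middle and an interaction of 1.43 (SE 0.27, adjusted p 0.0315). Themis, a signalling adaptor known from T cells, was 0.792, 0 and 1.41 CPM in the chow libraries and 114 and 101 in the MASH libraries in the middle and 9.99, 2.97 and 13.8 CPM in the chow libraries and 176 and 169 in the MASH libraries at the pericentral end. Its diet difference was more positive in the middle by 2.87 (SE 0.43, adjusted p 0.00774), on 10 chow UMIs in all in the middle. Fgf21, a hormone released by stressed liver, gave -2.33 (SE 0.44, adjusted p 0.0357), with 4.75, 2.94 and 2.62 CPM in the chow libraries and 53.2 and 77.2 in the MASH libraries in the middle. Against the periportal end Plin2, the main droplet coat protein of hepatocytes, gave 0.80 (SE 0.16, adjusted p 0.0385), and Igfbp1, an insulin-suppressed binding protein of growth factors, 1.79 (SE 0.38, adjusted p 0.0419) with 193, 145 and 1229 CPM in the chow libraries and 93.4 and 132 in the MASH libraries in the middle.

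Among 29 genes of hepcidin control and iron handling, 0 were called between the middle and the periportal end, and 5 were higher in the middle than at the pericentral end (median of the list 0.10). Of all genes 3.82% were higher in the middle than at the pericentral end. Smad7, which damps BMP signals, was 0.45 higher (adjusted p 0.00854), Il6st, the shared receptor chain for interleukin-6, 0.33 (adjusted p 0.0304), the zinc and iron importer Slc39a14 0.36 (adjusted p 0.0127) and ceruloplasmin (Cp) 0.35 (adjusted p 0.0234). Id1, a target of BMP and SMAD signals, was 8.45, 16.9 and 34.7 CPM in the chow libraries and 21.3 and 15.1 in the MASH libraries in the middle, 10.9, 11.2 and 18.4 CPM in the chow libraries and 40.9 and 44.7 in the MASH libraries at the periportal end and 4.87, 6.74 and 16.6 CPM in the chow libraries and 12.1 and 6.35 in the MASH libraries at the pericentral end. It was 1.04 (SE 0.30, adjusted p 0.0409) above the pericentral end, and in MASH -1.24 (adjusted p 0.0195) from the periportal end. Its diet difference was more negative in the middle than at the periportal end, at -1.79 (SE 0.34, adjusted p 0.0241), the same sign as for Hamp and Hamp2. Atoh8, another BMP target, gave -1.25 (adjusted p 0.0879) and was not called. Between diets 1 of 29 was lower in the MASH middle, near the share of 2.02% over all genes. This was Stat3, which carries the interleukin-6 signal, with 263, 247 and 434 CPM in the chow libraries and 91.7 and 93.9 in the MASH libraries and -1.68 (SE 0.36, adjusted p 0.0382). For the other 28 genes, among them the BMP receptors, Hfe, Tfr2, Tmprss6 and ferritin, no diet difference passed the threshold.

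Of 19 genes of IGF, insulin and growth signalling, Igf1 and the cyclin Ccnd1 were higher in the middle than at the pericentral end (3.82% over all genes), by 0.56 (adjusted p 0.0304) and 1.02 (adjusted p 0.0043), and 0 were called against the periportal end. Ccnd1, which drives entry into the cell cycle, was 5.02, 12.4 and 10.3 CPM in the chow libraries and 53.2 and 32.3 in the MASH libraries in the middle and higher in MASH by 2.28 (SE 0.41, adjusted p 0.022). Igf1, the growth factor that the liver secretes in answer to growth hormone, was 751, 1063 and 602 CPM in the chow libraries and 180.4 and 205 in the MASH libraries in the middle and lower in MASH, at -1.97 (SE 0.38, adjusted p 0.0273). Socs2, a feedback inhibitor of growth hormone signals, was 228, 364 and 205 CPM in the chow libraries and 14.8 and 21.2 in the MASH libraries and lower, at -3.78 (SE 0.41, adjusted p 0.00388). Of 12 cell cycle genes 7 could be tested between diets, and Ccnd1 and Top2a were higher in MASH (3.66% over all genes), Top2a on 2, 5, 1, 10 and 12 UMIs.

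Of 19 bile acid genes tested, 2 were higher in the middle than at the periportal end (Cyp27a1 and Hsd3b7), 5 lower than at the pericentral end and 2 higher (Baat and Fgfr4). Of all genes 1.17%, 4.24% and 3.82% were called in these directions. Cyp27a1, which starts the acidic route of bile acid synthesis, was 509.9, 277 and 449.9 CPM in the chow libraries and 167 and 275 in the MASH libraries, at 0.61 (adjusted p 0.000524) and -0.58 (adjusted p 0.000229) from the ends. The receptor Fgfr4, which represses bile acid synthesis, had a more negative diet difference in the middle than at the periportal end, -0.96 (SE 0.17, adjusted p 0.0176), with 61.8, 74.1 and 57.1 CPM in the chow libraries and 46.7 and 35.8 in the MASH libraries in the middle and 88.4 and 91.3 CPM at the periportal end of MASH. Between diets 1 of 19 was lower in the MASH middle (2.02% over all genes), Cyp7b1, of the same route as Cyp27a1, at -4.39 (SE 0.37, adjusted p 0.00244).

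Between diets, 660 of 11605 genes tested were called in the middle nuclei, 425 higher in MASH (3.66%) and 235 lower (2.02%). The share of higher calls was 64.4% and moved to 78.8% (528 higher and 142 lower) with no scaling factors, an alternative added after the data were seen that shifts the median of all genes from -0.03 to 0.24. It was 52.1% with DESeq2 (648 higher and 596 lower) and 48.1% with no filter on low counts (917 higher and 991 lower). The count fell to 33 without MASH 1, 59 without MASH 2 and 273 without chow 2, and rose to 1388 without chow 1 and 1078 without chow 3. Nuclei were ranked within each library, so the rule did not use the diet. It kept a smaller share of barcodes as hepatocyte nuclei in MASH than in chow. The same ranks stood for higher scores in MASH, so position along the score and diet cannot be told apart in these 660 calls. With nuclei ranked over all libraries together, 426 genes were called higher and 240 lower, and 489 of the 660 calls were shared.

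The largest rises by the naming rule were in genes near 0 in chow. Themis had 10 UMIs in the 3 chow middles together and 392 in MASH, a ratio of UMI shares of 196 (95% exact counting interval 105.2 to 411, counting error only) and a fitted difference of 7.22 (SE 0.62, adjusted p 0.00244). Rad51b, a DNA repair gene, had 6 and 273 UMIs (ratio 227, interval 103 to 624), and Ephb2, a receptor for ephrins, 2 and 142 (ratio 354, interval 96.2 to 2952). Rbm24, an RNA-binding splicing factor, had 46 UMIs in the MASH middles and 0 in those of chow, which makes it at least 76.5-fold higher against a floor of 3 counts over the group. Gipc2, Ntrk2, Ttc39a, Limch1 and Sema3b had ratios from 87.8 to 274. Ahnak2, with 38 UMIs on the MASH diet against 0, was at least 63.2-fold higher, with 10 of 19 and 15 of 19 UMIs in 1 nucleus. After the same thinning as for Hamp, the share of middle nuclei with a Themis UMI was 0.0763% in chow and 13.4% in MASH. In nuclei with endothelial markers it was 0.426% in chow and 5.09% in MASH. The part of background in the rise of Themis was not tested.

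The largest falls included genes of male pattern. Mup1 went from 2076 UMIs to 0, at least 139-fold lower on the MASH diet, and Mup7 from 6792 to 3 (ratio 454, interval 155 to 2202), while Mup11 and Mup16 had ratios of 68.5 and 63.0; these urinary protein genes are near-identical and reads can be split among them. Hsd3b5, a steroid dehydrogenase of male liver, went from 687 UMIs to 0, at least 45.9-fold lower. Serpina1e, an alpha-1 antitrypsin, was 833, 2957 and 4531 CPM in the chow libraries and 22.5 and 4.54 in the MASH libraries (ratio 174, interval 131 to 236). Ugt2b37, Egfros, Gm15611 and Gm48199 completed the 10, with ratios of 81.0, 58.3 and 130 and at least 14.0. Of 16 growth hormone dependent male genes tested, 9 were lower in MASH (2.02% over all genes) and 0 higher, with a median of -2.88 against -0.03 over all genes. Egfr, the receptor for epidermal growth factors, belonged to them at 702, 1898 and 2229.7 CPM in the chow libraries and 71.6 and 106 in the MASH libraries and -4.09 (adjusted p 0.0134), while Mup20, at 831, 1618 and 2162 CPM in the chow libraries and 3325 and 1719 in the MASH libraries, gave 0.80 (adjusted p 0.379). Between the middle and the periportal end 1 of the 16 was called, Elovl3, which was higher in the middle (1.17% over all genes).

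Genes of cholesterol synthesis and uptake were lower in 8 of 19 cases (2.02% over all genes) and higher in 0, with a median of -1.20. Sqle, which makes the first oxygenated sterol precursor, was 25.1, 62.9 and 115 CPM in the chow libraries and 1.18 and 2.02 in the MASH libraries (-5.27, SE 0.85, adjusted p 0.0149), and Idi1, of the isoprenoid part of the route, 54.1, 72.7 and 75.2 CPM in the chow libraries and 1.77 and 4.54 in the MASH libraries (-4.28, SE 0.43, adjusted p 0.00284). Fdps, Cyp51, Msmo1 and Nsdhl, of the same route, were lower too, and Hmgcs1, an early enzyme of the route, gave 0.20 (adjusted p 0.71). In all libraries together Idi1, Sqle and Dhcr7 were higher in the middle than at the pericentral end, and Sqle was lower than at the periportal end.

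Of 21 lipogenesis and lipid storage genes, 5 were higher in MASH (3.66% over all genes) and 0 lower, with a median of -0.05. Srebf1, the transcription factor of lipogenesis, was 58.3, 65.1 and 32.3 CPM in the chow libraries and 367 and 323 in the MASH libraries and rose by 2.82 (SE 0.35, adjusted p 0.0063), and Plin4 by 2.97 (SE 0.27, adjusted p 0.00245). Cidec rose by 2.44 (SE 0.33, adjusted p 0.00876), Elovl5, an elongase of unsaturated fatty acids, by 1.15 (SE 0.25, adjusted p 0.039), and Cidea, on 8 chow and 19 MASH UMIs, by 3.17 (SE 0.70, adjusted p 0.0411). Along the ranks, Acly and Srebf1 were lower and Plin4 and Cidec higher in the middle than at the periportal end. Of 20 fatty acid oxidation genes 1 was higher in MASH, Fgf21 (4.34, SE 0.36, adjusted p 0.00244), and 0 lower, with a median of -0.34. The count is near the share of 3.66% over all genes. Acaa1b, Cyp4a10 and Cyp4a14 lay between the ends, higher than at the periportal and lower than at the pericentral end.

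Acute phase genes had a median of -2.16 over 21 genes between diets, with 1 called lower (2.02% over all genes). This was complement C3, at 1071, 1337 and 2338 CPM in the chow libraries and 401 and 267 in the MASH libraries (-2.16, SE 0.49, adjusted p 0.0456). Chow libraries differed widely in acute phase genes. Saa1, serum amyloid A, was 727, 126 and 8497 CPM in the chow libraries and 124 and 102 in the MASH libraries, with chow 3 far above the other chow libraries, and gave -4.71 (adjusted p 0.13). Of 19 held-out pericentral genes tested between diets, Axin2 and Rnf43 were higher in the MASH middle and Cyp2c29 and Cyp2c37, of drug metabolism, were lower, Cyp2c29 at -4.11 (SE 0.40, adjusted p 0.00256). Of 22 held-out periportal genes, Ctsc and Igf1 were lower. Of all genes 3.66% were higher in MASH and 2.02% lower.

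**Figure D5:**
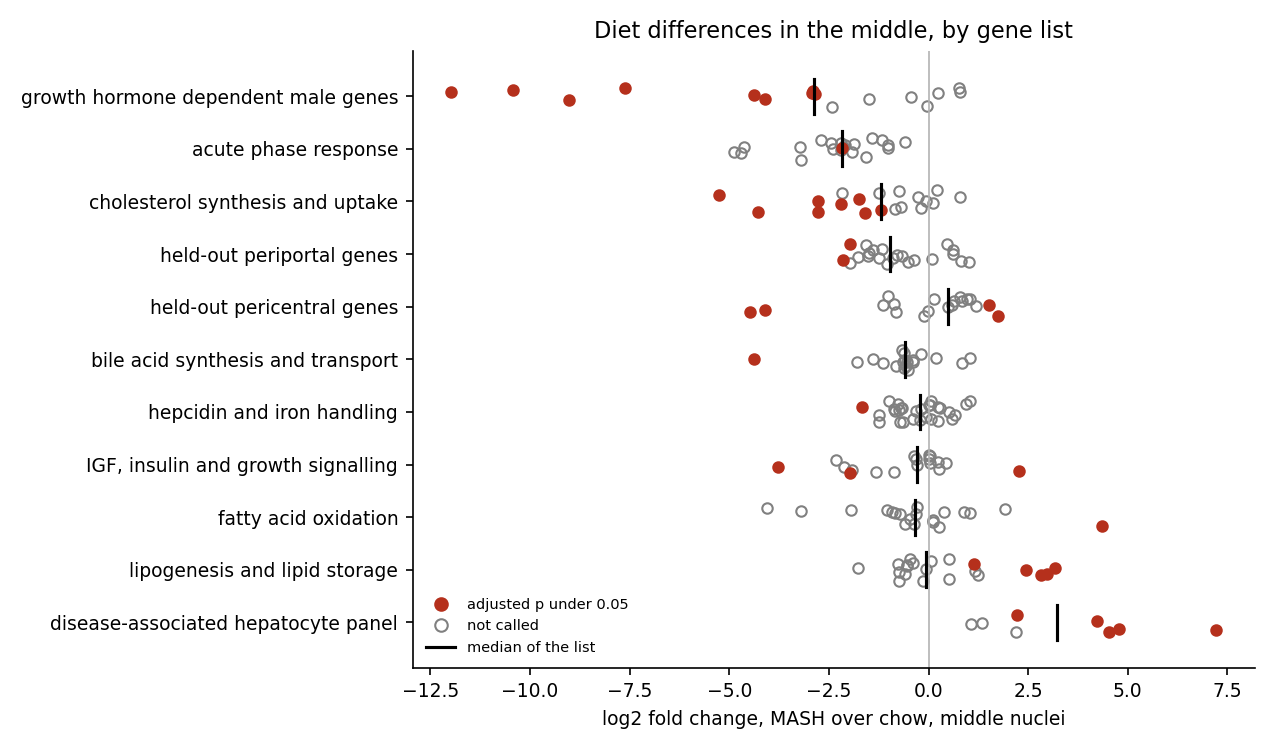
Fitted log2 fold change of MASH over chow in the middle nuclei for each tested gene of 11 lists, with red points for an adjusted p under 0.05, open points for genes not called and a bar at the median of the list. Growth hormone dependent, acute phase and cholesterol genes lie mostly below 0, and the list of disease-associated genes lies above 0.

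The list of disease-associated genes holds Nrg1, Anxa2, Gdf15, Sox4, Klf6 and Jun, a panel that the study drew from its liver nuclei, with Themis and Cdkn1a added here from other genes the study describes, so its direction is not independent evidence. Of the 8 genes 5 were higher in the MASH middle (Nrg1, Anxa2, Gdf15, Sox4 and Themis), with a median of 3.22. Of all genes 3.66% were higher. Anxa2, a membrane-binding protein, was 1.32, 1.37 and 3.63 CPM in the chow libraries and 61.5 and 50.5 in the MASH libraries, and Gdf15, a stress hormone, 58.3, 35.1 and 58.3 CPM in the chow libraries and 252 and 191 in the MASH libraries (2.22, SE 0.32, adjusted p 0.0104). Nrg1, a ligand of ErbB receptors, was 1.58, 7.45 and 23.0 CPM in the chow libraries and 305 and 169 in the MASH libraries in the middle and 0.256, 1.98 and 11.4 CPM in chow and 83.7 and 69.8 in MASH at the pericentral end, higher in the middle by 1.48 (SE 0.18, adjusted p 4.3e-05). Klf6, Jun and the cell cycle inhibitor Cdkn1a gave 2.19 (adjusted p 0.0784), 1.06 (adjusted p 0.32) and 1.35 (adjusted p 0.232). After the same thinning as for Hamp, the share of middle nuclei with an Nrg1 UMI was 0.828% in chow and 18.2% in MASH. In nuclei with endothelial markers it was 0.679% in chow and 9.66% in MASH. The part of background in the rise of Nrg1 was not tested. Markers of other cells also moved with the diet in the middle nuclei. Col1a1 and Col1a2 of stellate cells (on 6 and 24 UMIs of Col1a1 in chow and MASH), Stab2 and Flt4 of endothelium, Gpnmb of macrophages and Spp1 and Bicc1 of cholangiocytes were higher, with 2 of 8, 2 of 7, 1 of 3 and 2 of 2 tested genes of the lists, 0 lymphocyte genes could be tested, and their part in the results was not tested. Spp1, which codes for osteopontin, was 2.11, 8.63 and 12.7 CPM in the chow libraries and 119 and 136 in the MASH libraries.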

How the data were processed

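Sorted nuclei from frozen mouse liver were sequenced as droplet 3' libraries, and the authors deposited UMI counts per gene and barcode, made with Cell Ranger 8.0.1 against a GRCm38 reference with intronic reads left out per the study's methods. UMI counts of 32285 genes in 5 matrices were used as deposited, and 0 other per-sample columns were present. The members and gene lists were chosen with earlier results of these data known. UMIs were summed per library and rank group (15 sums for position and interaction, 5 for diet). The 15 genes of the rule stayed in the library sizes and scaling factors and were left out of the tests. Depth was 35612373 to 49137377 UMIs per library. The quasi-likelihood test of edgeR 4.0.16 (R 4.3.3) was run with TMM scaling, filterByExpr, library as a block for position, and Benjamini-Hochberg adjustment over all genes tested, with calls at an adjusted p under 0.05. Levels are TMM-scaled CPM, and fold changes are log2 with standard errors (SE). Doublet scores came from Scrublet in scanpy 1.11.5 and were used in an alternative only. DESeq2 1.42.0 was another alternative. Intervals and floors cover counting error only. Shares of nuclei were compared after thinning to 1000 UMIs. The scripts were tested on simulated data with 4-fold changes put in. They recovered 78% of rises and 56% of falls between diets. For the diet difference against the mean of the ends they recovered 91% and 69%, and for the middle against both ends 100% and 87%. Falls were thus found less often than rises. Counts were simulated around a single mean per gene, so no other difference in level between libraries, rank groups or diets was present. Unchanged genes called in the simulation are not reported here. Genes named for the diet were the 10 with the largest change in each direction among those called, at 10 CPM or more and not overlapping between diets. Genes of the lists, which covered midlobular, zonation, iron, growth, bile acid, acute phase, cholesterol, lipid, male-pattern, disease, cell cycle and other-cell genes, were named with those called first and then those of highest level, up to 4 per comparison. Named for the interaction were the called genes with the largest contrasts. Further genes named beside these were chosen after their values were seen. Alternatives were other scaling, filters, doublet removal, thinning before scoring, other rank cuts, a replicate block and leaving out each library. Promoters were read from RefSeq (GRCm38.p6) and gene positions from GENCODE M21, which held 99.6% of the genes. Single values of some list members are not reported here.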

Additional observations from a re-analysis of the deposited data

Results flagged for a closer look

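For these genes the difference between diets in the middle nuclei was itself different from that at an end, by the interaction term of edgeR with adjusted p under 0.05 (log2 scale, 3 chow and 2 MASH libraries). Against the periportal end the diet difference was more negative in the middle for Hamp (-1.71), Hamp2 (-2.73), Cps1 (-1.08) and Uroc1 (-0.78), and more positive for Igfbp1 (1.79) and Plin2 (0.8). Against the pericentral end it was more positive for Themis (2.87), Ier3 (3.6), Plin4 (1.4) and Cidec (1.43), and more negative for Fgf21 (-2.33). Against the mean of both ends it was more positive for Ier3 (2.1) and Plin4 (1.09). Not every called gene is listed in this section. Of 12602 genes, 47 were called more negative and 14 more positive against the periportal end. Against the pericentral end 12 were called more negative and 11 more positive. Equal ranks stood for higher scores in MASH than in chow, so position along the score and diet cannot be told apart in these values.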

How the results depend on the processing

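The count of 660 diet calls became 1244 with DESeq2, 1908 with no filter on low counts and 1055 with the replicate block, and 33 to 1388 when 1 library was left out. The replicate numbers of the labels were not shown to pair libraries (correlations of deviations -0.093 and -0.115 in 2 pairs). The 7 genes above both ends became 3 with DESeq2, 3 without haemoglobin nuclei, 14 with no filter, 0 with no library block, 4 with thinning before scoring, 4 with 3 equal parts of the ranks, and 2 to 7 without 1 library. The count of 0 below both ends became 1 with DESeq2, with the middle 10% of ranks, with under 5% mitochondrial UMIs, with no filter and with thinning, and stayed 0 without any 1 library. The 2 interaction calls became 0 with at least 10 CPM, 4 without doublets, 4 without haemoglobin nuclei, 1 with the middle 10% of ranks, 67 with no filter, 1 with thinning, 0 with 3 equal parts, and 0 to 21 without 1 library. Both values that changed sign were of Hamp2 and neither was called: its diet difference was 0.31 (adjusted p 0.735) with ranks set over all libraries, and its middle against the periportal end was 0.10 (adjusted p 0.972) without MASH 2, in a range from -0.68 to 0.10 over the libraries left out. The cause of these changes was not tested. Where a MASH library was left out, the other was assumed to vary like the chow libraries. Removal of haemoglobin nuclei and the fit with no scaling factors were chosen after seeing the data. With 262 to 284 middle nuclei per MASH library, genes with few UMIs rest on few nuclei.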
